A study of Mus musculus with 7 samples.

Results

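The matrix glycoproteins described here are 10 genes whose products are secreted around cells and tune how cells hold on to collagen and to each other: Postn, Thbs1, Thbs2, Tnc, Sparc, Spp1, Fn1, Fbln1, Fbln2 and Smoc2. They were taken as all probe sets that the array's annotation table pairs with 1 of these symbols. This gave 15 probe sets of 9 genes, out of 12394 named genes and 22690 probe sets on the array, and all 15 passed the filter on low signals that left 14012 probe sets for testing. Another probe set, paired with both Pald1 and Thbs1, is given separately. No probe set in the table was paired with Spp1, so osteopontin is not analysed here.

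RNA came from mouse embryonic fibroblasts (MEF). The p53-/- cells lack the tumour suppressor p53. The p53-/- Dnmt1-/- cells lack p53 as well, together with Dnmt1, the enzyme that copies DNA methylation onto new strands. All 7 groups therefore share the loss of p53, and no group had wild-type p53. For each genotype there was an untreated array, 1 at 24 h and 1 at 48 h of exposure to trichostatin A (TSA), which blocks histone deacetylases. The p53-/- Dnmt1-/- cells were also taken 2 weeks after TSA removal. They are called p53-null and p53-Dnmt1-null below. Each group was 1 array. The sources used here do not give the dose of TSA, the Dnmt1 allele, or whether the cells were clones.

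Matricellular proteins are secreted into the matrix but act mainly as adaptors, joining integrins and other surface receptors to collagen, growth factors and proteases. Fibroblasts are a main source of them, and their levels are known to rise in development, wounds, fibrosis and tumour stroma. Fibronectin and the fibulins are more structural, forming or bridging the fibrils onto which the others are laid.

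Because DNA methylation in mammals sits on the dinucleotide CG, the 150 bases before the annotated starts are shown for members with large and with small genotype differences. The sequences are RefSeq's (GRCm38.p6), read 5′ to 3′ on the gene's strand, with each CG in capitals. Methylation itself was not measured.
Postn, outer start, chr3:54359117-54359266, plus strand: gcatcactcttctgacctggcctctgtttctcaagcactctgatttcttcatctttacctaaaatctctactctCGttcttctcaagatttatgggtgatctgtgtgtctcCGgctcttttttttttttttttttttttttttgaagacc
Postn, inner start, chr3:54360957-54361106, plus strand: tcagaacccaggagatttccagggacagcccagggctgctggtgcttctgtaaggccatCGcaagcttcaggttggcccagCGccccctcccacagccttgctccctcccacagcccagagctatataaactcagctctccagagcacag
Thbs2, chr17:14694263-14694412, minus strand: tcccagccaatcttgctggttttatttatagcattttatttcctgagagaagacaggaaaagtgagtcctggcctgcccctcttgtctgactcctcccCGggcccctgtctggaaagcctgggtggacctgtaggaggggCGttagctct
Tnc, outer start, chr4:64047016-64047165, minus strand: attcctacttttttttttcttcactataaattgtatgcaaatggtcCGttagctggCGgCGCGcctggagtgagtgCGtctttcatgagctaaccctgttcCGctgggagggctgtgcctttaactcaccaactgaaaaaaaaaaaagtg
Sparc, chr11:55420081-55420230, minus strand: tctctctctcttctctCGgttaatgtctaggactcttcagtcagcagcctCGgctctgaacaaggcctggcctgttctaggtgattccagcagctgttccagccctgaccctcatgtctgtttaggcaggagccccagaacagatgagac
Fbln2, chr6:91212614-91212763, plus strand: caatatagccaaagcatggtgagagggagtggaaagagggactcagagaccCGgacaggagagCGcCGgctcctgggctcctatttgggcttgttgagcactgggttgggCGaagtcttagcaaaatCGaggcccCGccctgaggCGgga

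Of the 10 genes, 7 had a window in the promoter table, which runs from 250 bases before a start to 50 after it. Over such whole windows Postn held 4 and 5 CG at its outer and inner start, Thbs2 held 4, and Sparc also held 4. Tnc held 10 and 16 in windows that overlap, Fbln2 held 10, Fbln1 held 12 and 24 in windows that also overlap, and Spp1 held 3 and 3. The median over all 32851 windows was 7. Thbs1, Fn1 and Smoc2 had no window, and whether CG counts go with the genotype differences given below was not tested.

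Each window was also searched on both strands for 5 motifs. TATAAA, the core of the TATA box, was found in the inner window of Postn, both windows of Tnc, that of Thbs2 and the outer window of Spp1. Of all windows 13.6% held it. The search did not ask where in a window a motif lay, and in the printed Thbs2 bases TATAAA stands on the opposite strand. GGGCGG was found in both windows of Tnc, in that of Fbln2 and in the inner window of Fbln1, against 35.7% of all windows. CACGTG was found in both windows of Fbln1, against 7.15%. The windows of Tnc overlap, as do those of Fbln1, so a motif found in both can be the same copy. The motif TGACTCA, held by 5.2% of all windows, was in no window of a member. Neither was CATTCC, held by 14.7%. The CG within CACGTG and GGGCGG is also in the CG counts.

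The arrays were alike in scale, with median signals of 41.9 to 48.8, a trimmed mean of 150.1 on every array and a highest signal of 6303.5 to 9856.6. The 3′ to 5′ signal ratios of the Gapdh and Actb controls lay at 0.834 to 0.906 and 1.06 to 1.23. The 18S control (3′ end) ran from 194.0 to 337.5 on the p53-null arrays. At matched times it ran from 688.1 to 2549.1 without Dnmt1, and it was 93.6 after removal. Dnmt1, the targeted gene, read 695.6, 384.4 and 308.2 at 0, 24 and 48 h in p53-null cells. In the p53-Dnmt1-null cells that probe set read 206.5, 74.0 and 109.5, and 123.2 after removal, above the pooled median on every array. The difference was -1.77 on the log2 scale, and -2.17 on a second probe set (limma adjusted p = 0.000281 and 0.000591). Whether these probe sets lie in the deleted part of the gene is not known here. The 13 fibroblast markers summed to 25941.2 to 31178.1 on the p53-null arrays and 6772.7 to 12411.4 on the p53-Dnmt1-null arrays, with 11 of the 13 lower by limma. Fap and Lum stayed below the pooled median signal of 45.6 on all arrays of the latter. Fap was also dim in p53-null cells, at 25.5, 32.3 and 109.7 at 0, 24 and 48 h. Dcn went the other way, at 73.8 to 551.8 against 617.8 to 1611.5, and Vim, which many mesenchymal and mesothelial cells share, was at 5662.4 to 6432.2 against 4047.7 to 5732.6. The 10 measured mesothelial and epithelial markers summed to 152.1 to 423.0 and 10893.0 to 19193.8, with Upk3b at 7.0 to 21.7 and 2337.1 to 5141.3. Wt1, a mesothelial factor, was at 0.9 to 5.4 in p53-null cells and at 427.6 to 650.4 in p53-Dnmt1-null cells. All 10 of these markers were higher by limma. Of the 10, 2 were above 45.6 on any p53-null array, and all 10 on some p53-Dnmt1-null array. Most thus passed the filter only through the arrays where they were high, so a call of lower was hardly open to them. Both lists moved with the genotype difference described next, and their part in it was not tested. In bulk RNA, fewer cells of a type and less RNA per cell cannot be told apart.

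The matrix glycoproteins were lower without Dnmt1, and they fell into very unequal sizes of difference. Postn, Smoc2, Thbs2, Thbs1 and Tnc had differences of -6.93 to -3.21 on the log2 scale, whereas those of Fbln1, Fbln2 and Sparc were -1.44 to -0.21. Of the 15 probe sets, 13 were lower by limma at an adjusted p of 0.05, 0 were higher, and the 2 probe sets of Fn1 did not pass. For comparison, 19.3% of all tested probe sets were lower and 17.6% higher by that rule. Postn, the probe sets of Smoc2 and the dimmer probe set of Thbs2 passed the filter only through p53-null arrays. Their highest p53-Dnmt1-null signals were, in that order, 16.8, 24.3, 7.1 and 43.5, so a call of higher was hardly open to them. The median of the 15 was -3.21, against 0.02 over all 14012. Values for this comparison are p53-Dnmt1-null minus p53-null on log2(signal + 11.4), fitted on the 6 arrays at 0, 24 and 48 h with terms for genotype and for time. The p-values measure the spread between these single arrays and not between cultures.

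**Figure D1:**
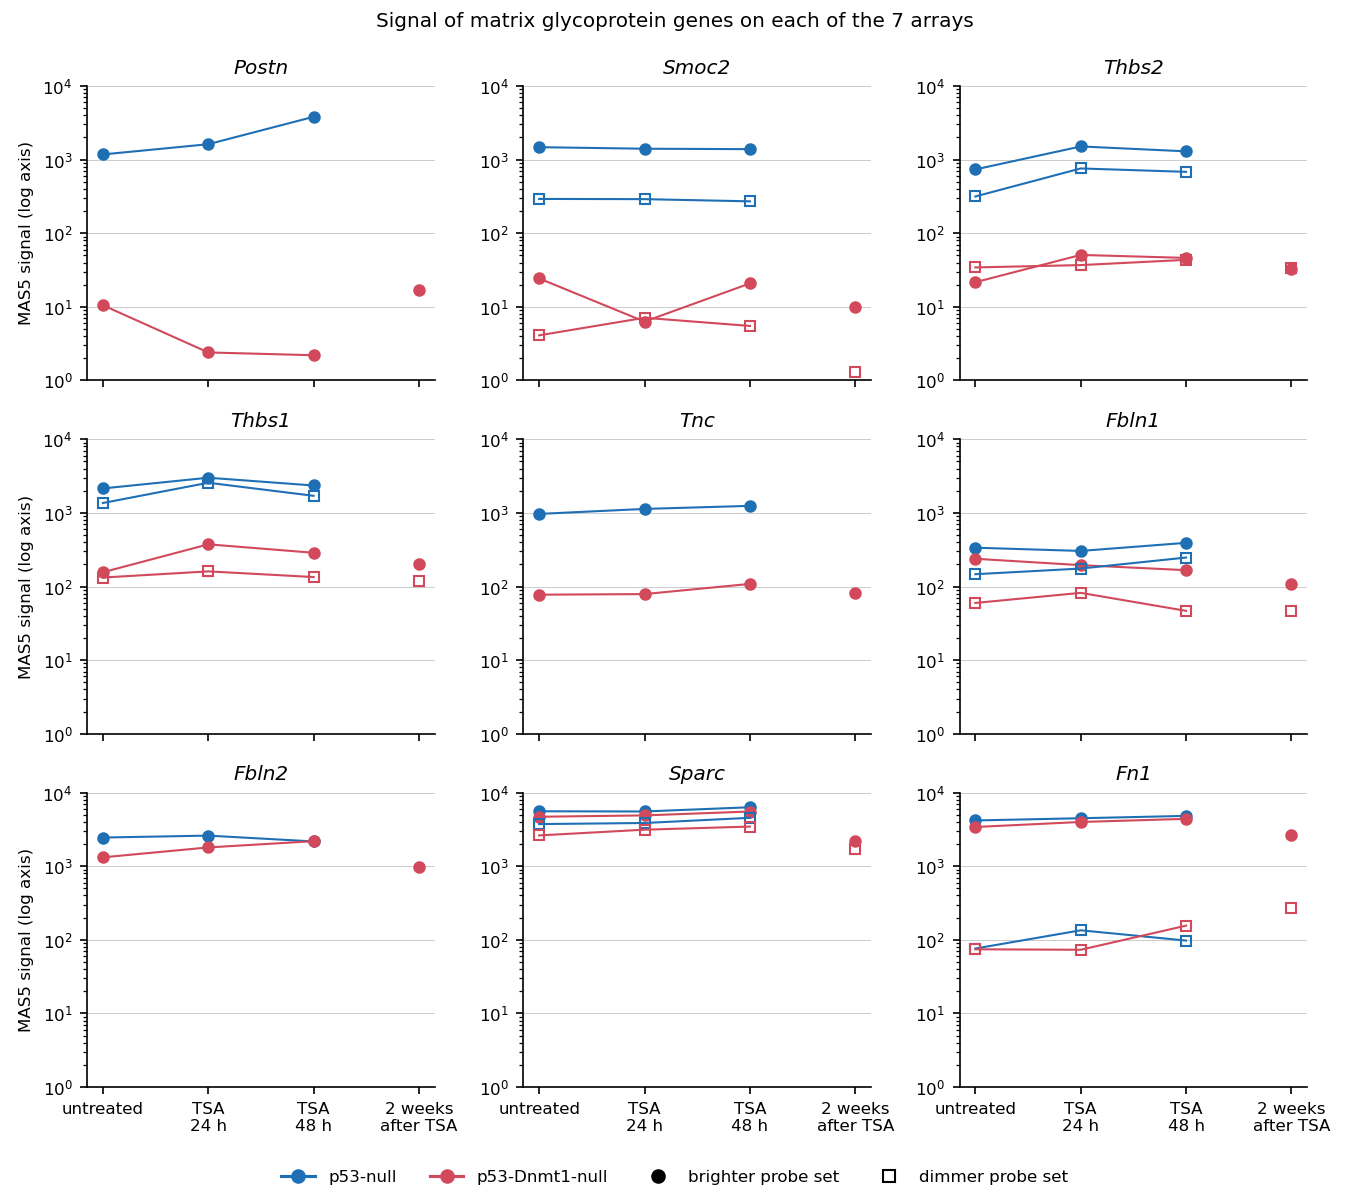
Signal of each probe set (log axis) on each array, by treatment, for the 9 measured genes; blue is p53-null and red p53-Dnmt1-null, 1 array per point, with filled circles for the brighter and open squares for the dimmer probe set of a gene. The colours lie far apart for Postn, Smoc2, Thbs2, Thbs1 and Tnc and close together for Fbln2, Sparc and Fn1.

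Among the adaptors that bind integrins, periostin (Postn), which binds collagen and fibronectin and is made by activated fibroblasts, showed the widest gap. Its signal was 1175.8 untreated, 1619.1 at 24 h and 3814.6 at 48 h of TSA in p53-null cells. In p53-Dnmt1-null cells it was 10.5, 2.4 and 2.2, and 16.8 after removal. Every p53-Dnmt1-null value was below the pooled median signal of 45.6, and no p53-null value was. The difference was -6.93 ± 0.37 (SE, n = 3 arrays in each genotype, limma adjusted p = 4.78e-06). Of tested probe sets, 0.01% of tested probe sets had a lower difference. The size of so large a fold rests on the offset, since the lower arm is dim: the untreated pair differed 54.2-fold on the offset scale, and by a plain ratio of 112.0.

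Tenascin C (Tnc), which weakens the adhesion of cells to fibronectin, read 968.9, 1132.2 and 1246.5 on the p53-null arrays. The p53-Dnmt1-null arrays read 77.4, 78.9, 108.5 and, after removal, 82.3. The genotypes did not overlap, and unlike Postn the lower arm kept a signal above the pooled median on every array. Tnc differed by -3.51 ± 0.17 (SE, limma adjusted p = 2.80e-06), and the pairs at 0, 24 and 48 h gave -3.46, -3.66 and -3.39.

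The thrombospondins Thbs1 and Thbs2 are close relatives that bind the receptors CD47 and CD36 and restrain blood vessel growth, and Thbs1 also activates latent TGF-beta. The brighter probe set of Thbs1 read 2148.8, 3004.7 and 2356.4 in p53-null cells. In p53-Dnmt1-null cells it read 156.2, 374.1, 287.3 and, after removal, 199.7. Its dimmer probe set read 1362.5, 2568.6 and 1706.2 against 132.4, 160.5, 134.5 and 119.8. Neither overlapped between genotypes, and the differences were -3.21 ± 0.18 and -3.57 ± 0.18 (SE, limma adjusted p = 5.18e-06 and 3.07e-06). The probe set shared with Pald1, which cannot be given to either gene, differed by -2.66 ± 0.23.

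For Thbs2 the brighter probe set read 735.4, 1509.5 and 1295.7 in p53-null cells, against 21.6, 50.7, 46.2 and 33.1 in p53-Dnmt1-null cells. The dimmer read 315.6, 758.3 and 682.1 against 34.3, 36.9, 43.5 and 33.4. Both separated the genotypes on all arrays, with differences of -4.54 ± 0.17 and -3.50 ± 0.24 (SE, limma adjusted p = 8.61e-07 and 1.69e-05). The p53-Dnmt1-null signals of Thbs2 lay near or below the pooled median, while those of Thbs1 lay above it.

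The SPARC family held a small and a large difference. Sparc, also called osteonectin, binds collagen and calcium and is a general product of fibroblasts. Its brighter probe set read 5573.5, 5535.0 and 6319.4 on the p53-null arrays, against 4694.5, 4895.1 and 5529.2 at the same times without Dnmt1, with 2176.4 after removal. The dimmer read 3733.1, 3860.8 and 4539.9 against 2618.7, 3130.9, 3452.8 and 1732.3. All p53-Dnmt1-null arrays were below all p53-null arrays on both probe sets, but at matched times narrowly, with differences of -0.21 ± 0.06 and -0.40 ± 0.08 (SE, limma adjusted p = 0.0322 and 0.00507). The call of the brighter was lost whichever pair of arrays was left out (limma adjusted p = 0.0910, 0.107 and 0.118), without the filter (0.172) and without the trend (0.362), and that of the dimmer without the trend (0.107). Some of these signals come close to the highest on their array, a range in which array signals can flatten, which was not tested.

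Smoc2, a relative of Sparc that promotes growth factor signalling, was by contrast close to silent without Dnmt1. Its brighter probe set read 1475.7, 1405.8 and 1386.9 with Dnmt1 present, against 24.3, 6.3, 20.8 and 10.1 without it. The dimmer read 292.3, 290.4 and 271.1 against 4.1, 7.1, 5.5 and 1.3. The differences were -5.71 ± 0.23 and -4.13 ± 0.20 (SE, limma adjusted p = 1.06e-06 and 2.80e-06), and every value in the lower arm was below the pooled median. Here too the size rests on the offset. The dimmer ranged from -5.47 with an offset of 1 to -2.69 with the pooled median as the offset, and its untreated pair differed 19.6-fold on the offset scale and by a plain ratio of 71.3.

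Among the structural members, fibronectin (Fn1), which forms the first fibrils of a new matrix, was retained without Dnmt1. The brighter probe set read 4180.9, 4481.3 and 4821.2 in p53-null cells and 3407.6, 3986.9, 4398.6 and, after removal, 2662.8 in p53-Dnmt1-null cells. It was lower in p53-Dnmt1-null cells at each matched time but the genotypes overlapped, and the difference of -0.20 did not pass (95% interval -0.37 to -0.03, limma adjusted p = 0.0645). After quantile normalization it passed, at -0.33 (limma adjusted p = 0.00964). The dimmer probe set read 76.1, 134.6 and 97.6 against 74.3, 73.2, 155.7 and 273.9, with a difference of -0.07 (95% interval -0.67 to 0.53). The 2 probe sets of Fn1 did not follow each other over the 7 arrays (r = -0.489), and which of them follows the transcript was not tested.

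Fibulin 1 and fibulin 2 (Fbln1, Fbln2) bind fibronectin, elastic fibres and basement membrane. Fbln1 read 336.7, 304.3 and 392.1 in p53-null cells on its brighter probe set, and 238.2, 195.1, 166.7 and, after removal, 109.8 in p53-Dnmt1-null cells. The dimmer read 146.9, 175.4 and 247.4 against 59.8, 82.0, 46.7 and 46.2. Neither overlapped between genotypes, with differences of -0.76 ± 0.20 and -1.44 ± 0.25 (SE, limma adjusted p = 0.0168 and 0.00236). Without the 48 h pair the brighter gave -0.55 (limma adjusted p = 0.189).

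Fbln2 read 2450.5, 2602.7 and 2167.2 on the p53-null arrays, against 1319.4, 1798.1, 2186.5 and 972.5 on the others. The genotypes overlapped, since at 48 h of TSA the array without Dnmt1 was slightly above the p53-null array of that time. The difference passed narrowly, at -0.47 ± 0.16 (SE, limma adjusted p = 0.0458), and shrank over the pairs from -0.89 untreated to -0.53 at 24 h and 0.01 at 48 h. Without the untreated pair it was -0.26 (limma adjusted p = 0.195), and without the 24 h pair -0.44 (limma adjusted p = 0.0963). Without the 48 h pair it was larger, at -0.71 (limma adjusted p = 0.00790).

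**Figure D2:**
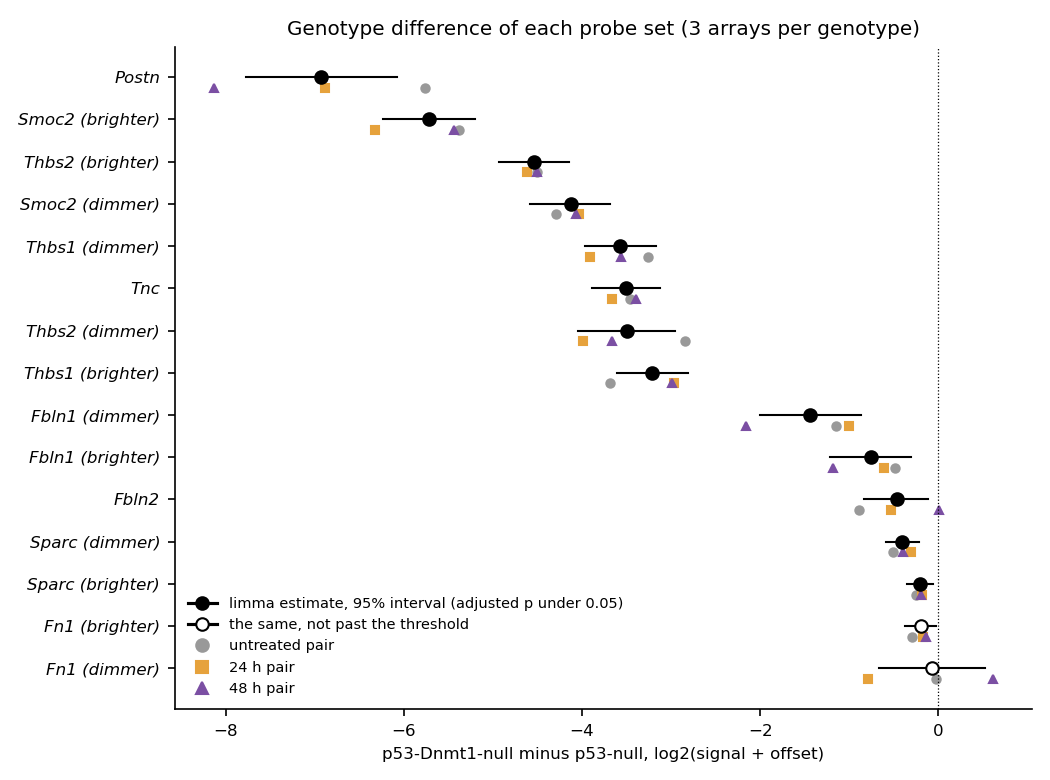
Genotype difference of each of the 15 probe sets on the log2(signal + offset) scale, p53-Dnmt1-null minus p53-null. Black points and bars are limma estimates with 95% intervals (open where the adjusted p did not pass), and small coloured symbols are the pairs of arrays at 0, 24 and 48 h; the 8 probe sets of Postn, Smoc2, Thbs2, Thbs1 and Tnc lie at -3.21 or lower and the other 7 at -1.44 or higher.

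In counts, 12 of the 15 probe sets had all 3 p53-null arrays above all 4 p53-Dnmt1-null arrays, an arrangement held by 18.8% of tested probe sets. The opposite was held by 0 members and 15.2% of tested probe sets. It was not open to Postn, Smoc2 and the dimmer probe set of Thbs2, which passed the filter only through p53-null arrays. By a rule of size, 9 were at least 2-fold lower at all 3 times, against 6.01% of tested probe sets. These were the 8 probe sets of Postn, Smoc2, Thbs2, Thbs1 and Tnc and the dimmer of Fbln1. The same 8 were the members lower by limma when the untreated arrays alone were contrasted, against 4.67% of tested probe sets. That contrast sets 1 array against 1 and takes its spread from the 24 h and 48 h TSA arrays. In it Sparc differed by -0.25 and -0.51, Fbln1 by -0.48 and -1.15 and Fbln2 by -0.89, without passing the test.

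Over the 7 arrays, some profiles came close to those of the members. The closest by Pearson's r, among 5685 genes with a range of at least 1 on the log2 scale, was Plxdc2 for Postn (r = 0.998), Rab23 for Smoc2 (r = 0.998), Clmp for Thbs2 (r = 0.996), Prrx2 for Thbs1 (r = 0.999) and Atp6ap1 for Tnc (r = 1.00). Mfap5 was second for Thbs1 (r = 0.997) and Tgfbi second for Tnc (r = 0.998). The closest for Sparc was Ccdc71 (r = 0.993), for Fn1 Trim32 (r = 0.994), for Fbln1 Zbtb11os1 (r = 0.990) and for Fbln2 Ifitm3 (r = 0.989). With 7 arrays that split by genotype, many genes reach such values, and by Spearman's rho 7 of the 27 genes in the top 3 of a member kept such a rank. Between members, Postn, Thbs1, Thbs2, Tnc and Smoc2 correlated with each other at r = 0.944 to 0.992, and Sparc and Fn1 at 0.946.

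Genes that work with these proteins were also mostly lower without Dnmt1. The lists were chosen with earlier results of these data known. Col1a1, Col1a2, Col3a1, Twist1 and Prrx1 are in them and also among the fibroblast markers above, so they are not separate observations. Each gene is given by its brightest probe set over the arrays, and over 8298 named genes 19.9% were lower and 19.2% higher. Of 35 listed relatives 23 passed the filter, with 16 lower, 1 higher and 6 not past the test, with a median of -1.52 against 0.03 for all genes. Mfap5, a microfibril protein, differed by -4.12, Tgfbi, the closest relative of periostin, by -3.80 and the fibulin Fbln5 by -3.79. Spock2, a proteoglycan of the SPARC family, was higher by 1.49.

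Receptors went both ways. Of 17 measured, 10 were lower, 4 higher and 3 did not pass, with a median of -0.65. The thrombospondin receptor Lrp1 differed by -2.02, the proteoglycan Cspg4 by -2.01 and the syndecan Sdc3 by -1.88. The laminin-binding integrin subunit Itga3 was higher by 2.94, the collagen receptor Ddr1 by 2.06 and the tenascin-binding phosphatase Ptprz1 by 1.37. Of 24 genes of matrix assembly and proteolysis, 21 were lower, 1 higher and 2 did not pass, with a median of -1.74. Col1a2, Col12a1 and the protease Mmp2 differed by -3.66, -3.48 and -3.39, and the crosslinking enzyme Tgm2 by 2.13.

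Among regulators and common targets of TGF-beta, SRF and YAP signalling, most did not pass the test. Of 29 measured, 11 were lower, 1 higher and 17 did not pass, with a median of -0.20. The latent TGF-beta binding proteins Ltbp2 and Ltbp1 differed by -4.96 and -3.48 and the mesenchymal homeobox factor Prrx1 by -4.44. Ankrd1, a target of YAP, was higher by 3.51.

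**Figure D3:**
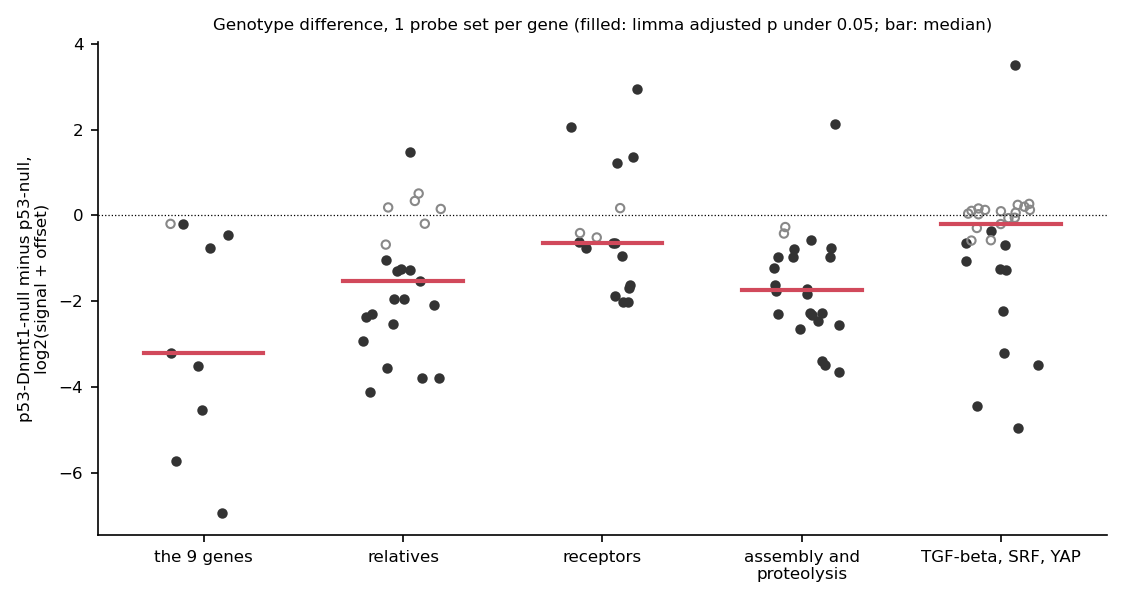
Genotype difference (p53-Dnmt1-null minus p53-null, log2 scale) of the 9 measured glycoprotein genes and of the genes in 4 lists, 1 point per gene, filled where limma's adjusted p passed and with the median as a bar. Medians are -3.21, -1.52, -0.65, -1.74 and -0.20 from left to right.

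Under TSA, no glycoprotein gene changed past the test in p53-null cells. In simulated data the test found 32.4% of 2-fold changes of this kind, so a 2-fold response could go uncalled. The probe sets of Thbs2 and, at 48 h, Postn had the largest folds. The dimmer probe set of Thbs2 was 2.35-fold and 2.12-fold its untreated level at 24 h and 48 h, and the brighter 2.04-fold and 1.75-fold. Postn was 1.37-fold at 24 h and 3.22-fold at 48 h. Thbs1 was 1.40-fold and 1.10-fold on its brighter probe set and 1.88-fold and 1.25-fold on its dimmer. Tnc was 1.17-fold and 1.28-fold.

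The other members stayed within 1.16-fold on their brighter probe sets in p53-null cells. There, Smoc2 was 0.953-fold and 0.940-fold, Sparc 0.993-fold and 1.13-fold, Fn1 1.07-fold and 1.15-fold, and Fbln1 0.907-fold and 1.16-fold. Fbln2 was 1.06-fold and 0.885-fold. The dimmer probe sets of Fn1, at 1.67-fold and 1.25-fold, and of Fbln1, at 1.18-fold and 1.64-fold, had larger ones. By the size rule 1 of the 15, the dimmer probe set of Thbs2, was at least 2-fold higher at both times, against 1.51% of tested probe sets, and 0 were lower, against 1.03%. With 24 h and 48 h pooled limma called 0 of the 15, and 0.0% of all tested probe sets. An unadjusted limma p under 0.05 was held by 1206 of the 14012 tested probe sets, among them 2 members, both probe sets of Thbs2. Their differences were 1.16 ± 0.30 and 0.92 ± 0.30 (SE, limma adjusted p = 0.376 and 0.468). The interval for Postn was 0.00 to 2.15 around 1.07 (limma adjusted p = 0.577).

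In p53-Dnmt1-null cells TSA did not bring any of the strongly lowered genes near its p53-null level. The brighter probe set of Thbs1 was 2.30-fold and 1.78-fold its untreated level at 24 h and 48 h, yet its highest reading of 374.1 compares with 2148.8 in untreated p53-null cells. The dimmer was 1.20-fold and 1.01-fold, so the probe sets disagree on the size. The probe set shared with Pald1 was 2.52-fold and 1.98-fold. Thbs2 was 1.88-fold and 1.75-fold on its brighter probe set and 1.06-fold and 1.20-fold on its dimmer, at dim signals. Tnc was 1.02-fold and 1.35-fold.

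Fbln2 stood out among the brighter members, at 1.36-fold and 1.65-fold. Fn1 was 1.17-fold and 1.29-fold on its brighter probe set, Sparc 1.04-fold and 1.18-fold on its brighter probe set, and Fbln1 0.827-fold and 0.713-fold on its brighter probe set. Postn and Smoc2 had signals of 2.2 to 20.8 on the TSA arrays. By the size rule 0 of the 15 were higher and 0 lower at both times, against 1.71% and 0.378% of tested probe sets. Limma called 0 of the 15 and 0.0% of all, and gave 1136 of the 14012 tested probe sets an unadjusted p under 0.05. Among them were 3 members: the brighter probe sets of Thbs1 and Thbs2, and Fbln2. They differed by 1.02 ± 0.30, 0.86 ± 0.30 and 0.58 ± 0.23 (SE, limma adjusted p = 0.501, 0.559 and 0.587). The 24 h array of these cells is also the one with the highest 18S signal, and the part of that in these values was not tested.

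Averaged over genotypes, TSA gave limma differences of 0.89 ± 0.19 and 0.67 ± 0.25 (SE) for the probe sets of Thbs2, with adjusted p = 0.137 and 0.277. Of the 15 members 0 were called, against 0.0143% of tested probe sets higher and 0.0% lower. An unadjusted limma p under 0.05 was held by 3 members and by 2052 of all 14012 tested probe sets. A difference in the TSA response between genotypes was called by limma for 0 members and 0.0% of all probe sets. Of all 14012, 480 had an unadjusted limma p under 0.05, among them 2 members. These were Postn, at -1.75 (95% interval -3.27 to -0.23), and the dimmer probe set of Thbs2, at -0.99 (95% interval -1.95 to -0.03), and both had an adjusted p of 0.995.

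**Figure D4:**
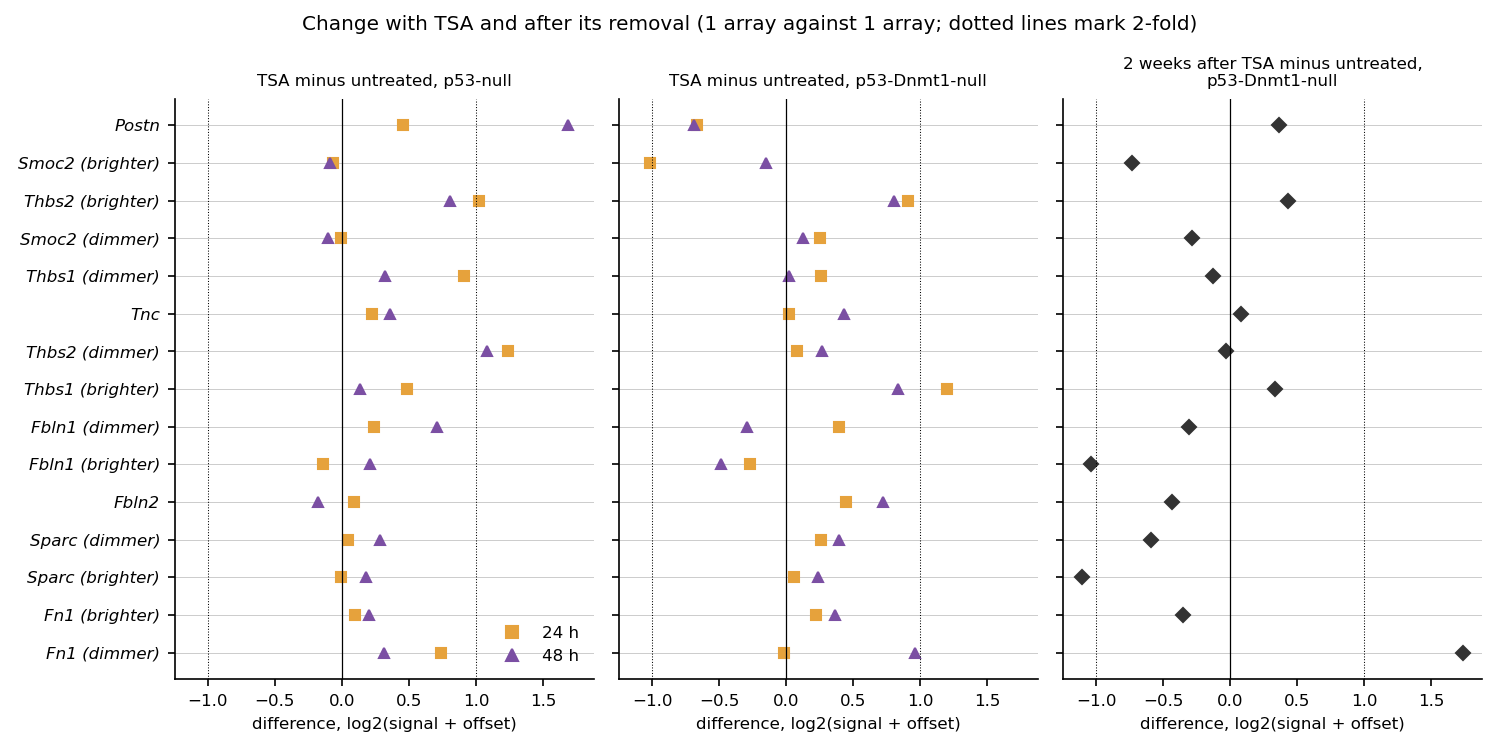
Change of each of the 15 probe sets on the log2(signal + offset) scale, 1 array against 1 array, for TSA in each genotype (squares 24 h, triangles 48 h) and for the array 2 weeks after TSA removal against untreated p53-Dnmt1-null cells; dotted lines mark 2-fold. In p53-null cells the points past 2-fold are Thbs2 and, at 48 h, Postn, and in the right panel Sparc and Fbln1 lie below and the dimmer Fn1 probe set above the dotted lines.

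After TSA removal the probe sets of Postn, Tnc, Thbs1 and Thbs2 were within 1.35-fold of their untreated p53-Dnmt1-null levels, and Smoc2 was lower at dim signals. Sparc, Fbln1, Fbln2 and the brighter probe set of Fn1 had their lowest signals of all 7 arrays. So did the dimmer probe sets of Thbs1, Thbs2 and Smoc2. Against untreated p53-Dnmt1-null cells, Postn was 1.29-fold, Tnc 1.06-fold, Thbs1 1.26-fold and 0.912-fold, Thbs2 1.35-fold and 0.980-fold, and Smoc2 0.602-fold and 0.819-fold. Sparc was 0.465-fold and 0.663-fold, Fbln1 0.486-fold and 0.809-fold, Fbln2 0.739-fold and Fn1 0.782-fold on its brighter probe set. The dimmer probe set of Fn1 went the other way, at 3.33-fold, and the probe set shared with Pald1 was 2.66-fold.

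By the size rule 2 of the 15 were lower, the brighter probe sets of Sparc and Fbln1, against 8.44% of tested probe sets, and 1 was higher, against 6.73%. Limma, which here sets 1 array against 1 and takes the spread from the TSA arrays, called 0 members, with 0.0143% of all higher and 0.0% lower. It gave 2630 of the 14012 tested probe sets an unadjusted p under 0.05, among them 4 members. Sparc differed by -1.10 ± 0.18 and -0.59 ± 0.21 on its probe sets (SE, limma adjusted p = 0.0819 and 0.194), the brighter of Fbln1 by -1.04 ± 0.37 (limma adjusted p = 0.197) and the dimmer of Fn1 by 1.74 ± 0.50 (limma adjusted p = 0.147). On the same array the fibroblast markers summed to 6772.7, the lowest of all arrays. The mesothelial and epithelial markers summed to 10893.0, the lowest of the p53-Dnmt1-null arrays. The 18S control and the median signal, at 41.9, were also at their lowest, and the Gapdh and Actb controls were at their highest. Their part in these values was not tested.

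Compared with untreated p53-null cells, 13 of the 15 probe sets were at least 2-fold lower after removal, against 17.7% of tested probe sets, and 1, the dimmer of Fn1, was higher, against 16.3%. Sparc was 0.392-fold and 0.466-fold on its probe sets and Fbln2 0.400-fold. The brighter probe set of Fn1 stayed closest, at 0.638-fold.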

How the data were processed

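The deposited values were linear signal intensities, 1 per probe set and array, made by the authors with MAS5 per the submitters' processing notes. The sources used here give no version or scaling target, but the trimmed mean was equal on all arrays. Probe sets were named through the array's annotation, with 20393 carrying 1 symbol and 691 several, and 20364 symbols updated to RefSeq names (GRCm38.p6). Signals were analysed as log2(signal + 11.4), the offset being the pooled 25th percentile. Probe sets above the pooled median of 45.6 on at least 1 array were kept, without 64 controls. Fold changes are on that scale, which understates dim genes. Differences were tested in R 4.3.3 by limma 3.58.1, its prior variance following mean intensity. Benjamini-Hochberg adjustment ran over all 14012 probe sets, with a threshold of 0.05. Simulated data had normal noise, its spread set in bins of intensity by the 24 h to 48 h differences of p53-null cells. In each of 5 runs 200 of the 14012 probe sets were changed, so recovery on the real arrays may differ. In simulated data limma recovered 80% of 2-fold changes between genotypes and 74.2% for TSA averaged over genotypes. It recovered 32.4% for TSA in p53-null cells, 29.4% in p53-Dnmt1-null cells, 16.2% for removal and 5.8% for the TSA difference between genotypes. Of 4-fold changes it recovered 67.8% to 98.8%. Few or no calls for TSA and removal thus do not show that 2-fold changes were absent. The genotype model had 2 residual degrees of freedom and the TSA and removal models 2 to 3, with 24 h and 48 h pooled, so the number of arrays limits the precision. Array comparisons without replicates used a rule of 2-fold. All probe sets of the members are named, and of each gene list the 3 most changed genes called in each direction. Profiles were compared by Pearson's r, taking the 3 closest genes. The members, lists and tests were chosen with earlier results of these data known. Alternatives were other offsets, no filter, quantile normalization, 1 probe set per gene, no trend, other fold limits, the untreated contrast and leaving out each time.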

Additional observations from a re-analysis of the deposited data

Results flagged for a closer look

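The TSA arrays moved Postn in opposite directions in the 2 genotypes. Both p53-null arrays with TSA were above the untreated array and both p53-Dnmt1-null arrays were below theirs, with an interaction of -1.75 on the log2 scale (limma adjusted p = 0.995). The p53-Dnmt1-null signals were 10.5, 2.4 and 2.2, all dim. The dimmer probe set of Smoc2 did the reverse by small amounts, with an interaction of 0.25 (limma adjusted p = 0.995), while its brighter probe set was below untreated on all 4 TSA arrays.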

How the results depend on the processing

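The genotype fit matched the arrays by time, and with 1 array in each group there were no replicate numbers to pair by. The 8 probe sets of Postn, Smoc2, Thbs2, Thbs1 and Tnc were called lower under every alternative to the genotype fit that tested them. Postn ranged from -8.60 to -5.30 with the offset and the arrays used. Against 13 members called lower in the main fit, there were 10 without the trend, 11 without the filter, 12 with an offset of 1 and 14 after quantile normalization. The 13 members called lower became 11 whichever pair of arrays was left out, 8 of 9 with 1 probe set per gene and 8 of 15 in the untreated contrast. Of all probe sets, 2701 lower and 2464 higher became 1578 to 2620 and 1323 to 2331 with a pair left out, 654 and 434 in the untreated contrast, and 1757 lower of 8941 with 1 probe set per gene. The dimmer Fn1 probe set ranged from -0.409 without the 48 h pair to 0.293, a turned direction, without the 24 h pair. Sparc, Fbln1 and Fbln2 lost calls under several settings, with adjusted p of limma up to 0.479, 0.502 and 0.195. For TSA in p53-null cells, leaving out an array gave 0 to 1 higher and 0 to 1 lower calls among all probe sets. In p53-Dnmt1-null cells the median offset and no trend each gave 1 higher. For TSA averaged over genotypes the 2 higher calls became 1 with the median offset, 0 without the filter and 0 without the trend. Leaving out a pair gave 64 to 122 higher and 44 to 105 lower, and no member among them. After removal, 2 higher became 7 with the median offset, 0 without the filter and 1 with 1 probe set per gene, and offset 1 gave 9 lower. For other fold limits the share of all tested probe sets is not given here, so the member counts have no background beside them. At 1.5-fold 2 members were higher at both times in p53-null cells, 2 higher and 1 lower in p53-Dnmt1-null cells, and 4 lower after removal. At 3-fold there were 0 higher in p53-null cells and 0 lower after removal. The cause of these changes was not tested. Signal over background limits the lower arm of Postn, Smoc2 and the dimmer probe set of Thbs2, whose p53-Dnmt1-null signals were below the pooled median on every array. The brighter probe set of Thbs2 was below it untreated and after removal, at 21.6 and 33.1.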
